A study of Mus musculus with 8 samples.

Results

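The enzymes that turn cholesterol into bile acids were described in whole liver of mice with a hepatocyte deletion of Opa1. Opa1 encodes the GTPase that fuses the inner mitochondrial membrane. The 10 genes were chosen by name: Cyp7a1, Cyp8b1, Cyp27a1, Cyp7b1, Cyp39a1, Cyp46a1, Hsd3b7, Akr1d1, Akr1c6 and Cyp2c70. All 10 were present among the 35976 genes of the deposited tables, and all 10 were among the 14036 genes that passed the filter on low counts. There were 3 OPA1_LKO livers, labelled KO in their titles, and 5 CTRL livers, labelled WT in their titles. All 8 libraries came from mice on a high fat diet. The promoter that drove the recombinase, the deleted exons, and the sex, strain and age of the mice are not given by the labels. Nothing states that each library is a separate animal, so p-values measure only the spread between these libraries, which may be technical in part.

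Bile acids are made from cholesterol by hydroxylation of the sterol ring, reduction of the ring and shortening of the side chain. The classic route begins at the ring in the endoplasmic reticulum with Cyp7a1, whose transcript falls when bile acids return to the liver. The alternative routes begin at the side chain, in mitochondria with Cyp27a1 or in the endoplasmic reticulum with Cyp46a1, and the oxysterols formed are then hydroxylated on the ring by Cyp7b1 or Cyp39a1. Hsd3b7, Akr1d1 and a 3-alpha-hydroxysteroid dehydrogenase act on the ring in all routes, Cyp8b1 adds the hydroxyl that makes cholic acid, and Cyp2c70 makes the muricholic acids of mice.

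Of the 10 enzyme genes, 1 rose and 1 fell in OPA1_LKO livers. Cyp39a1, the 7-alpha-hydroxylase of 24-hydroxycholesterol, rose by 1.26 ± 0.27 on the log2 scale (SE), and Cyp46a1, the cholesterol 24-hydroxylase that makes that oxysterol and is best known from neurons, fell by 2.29 ± 0.40. Both passed the quasi-likelihood test of edgeR at an adjusted p of 0.0239 and 0.0128, with Benjamini-Hochberg adjustment over all 14036 genes. By the same test 6.03% of all genes changed, 3.34% higher and 2.69% lower, and the other 8 enzyme genes did not pass. Without adjustment, 7 of the 10 genes had a p under 0.05, against 23.8% of all genes tested. The fitted log2 fold change was negative for 7 members and positive for 3, with a median of -0.73 beside -0.03 over all tested genes. In CPM, the count relative to library size after TMM scaling (trimmed mean of M-values), 1 member was higher and 4 were lower in every OPA1_LKO library than in every CTRL library, against 8% of all genes for higher and 8.41% for lower. The members were chosen with earlier results of these data known, so these counts describe them and do not test them as a set.

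**Figure D1:**
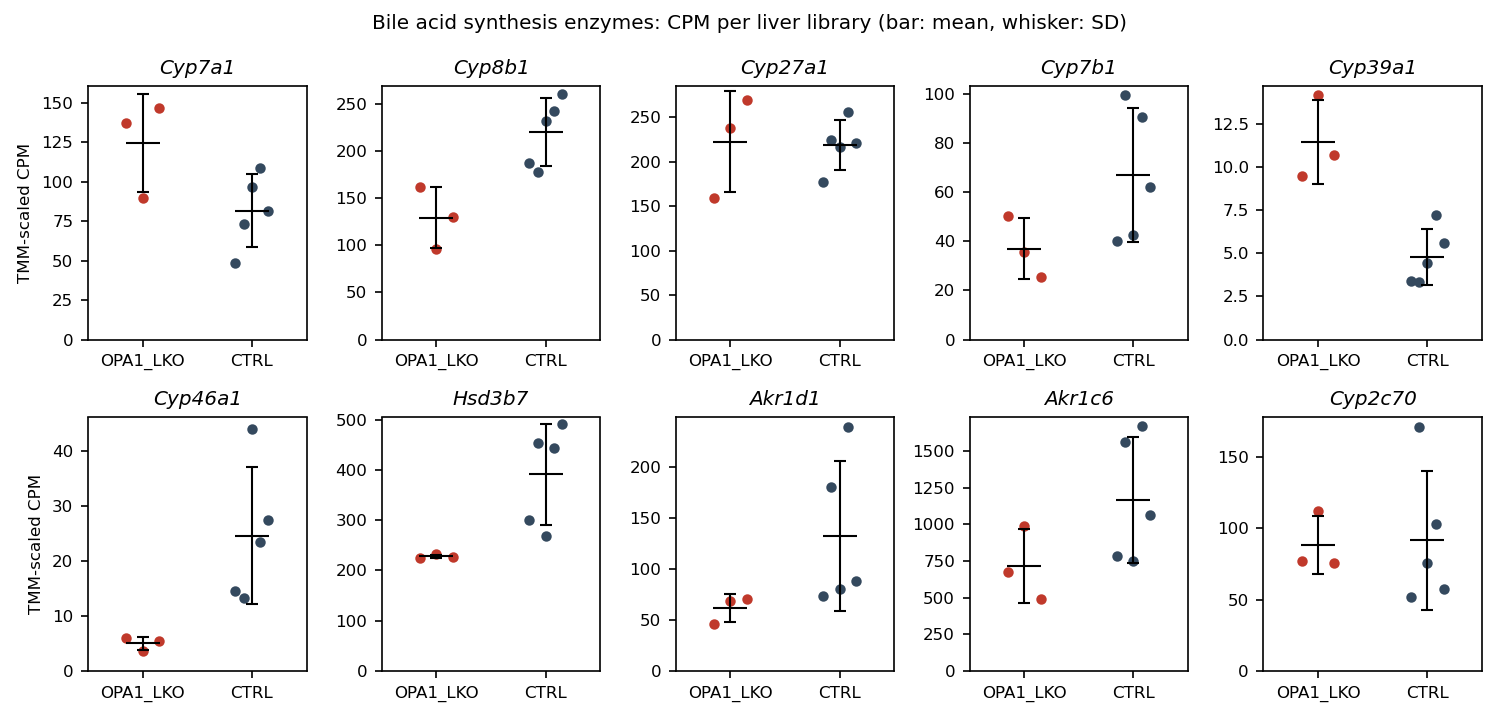
Level of each of the 10 enzyme genes in TMM-scaled CPM (vertical axis, from 0), with 1 point for each library, 3 OPA1_LKO livers left and 5 CTRL livers right, the bar at the mean and the whisker at the SD. The groups did not overlap for Cyp39a1 (higher in OPA1_LKO), or for Cyp8b1, Cyp46a1, Hsd3b7 and Akr1d1 (lower in OPA1_LKO).

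The libraries held 16627283 to 20471271 estimated reads on genes in OPA1_LKO and 16076404 to 20265229 in CTRL. Opa1 was at 24.7, 34.4 and 34.0 CPM in OPA1_LKO livers, against 39.9, 51.9, 44.0, 57.6 and 46.9 CPM in CTRL livers, with a log2 fold change of -0.63 ± 0.17 and an adjusted p of 0.0539 (edgeR), short of the threshold. Whole liver holds other cells than hepatocytes, and reads of exons outside the deleted part are counted. The part of either in the level of Opa1 was not tested. CTRL replicate 1 stood apart from the rest: Apoe was at 134 CPM in it and at no less than 20759 CPM in any other library, and Xist was at 8.13 CPM beside Y-linked transcripts, with at most 0.185 CPM in any other library. The hepatocyte markers Alb, Ttr, Apoa1, Serpina1a, Tat and Cps1 summed to 70426 to 90834 CPM in OPA1_LKO livers and 57775 to 100800 CPM in CTRL livers, and each was detected in every library. Cholangiocyte markers, for the bile duct epithelium, summed to 141 to 205 CPM in OPA1_LKO and 17.5 to 72.6 CPM in CTRL, with none at 0 in all libraries. By edgeR 3 of 7 were higher (Spp1, Sox9 and Krt7), against 3.34% of all genes, and 2 of 7 had negative fold changes. CTRL replicate 3 had the highest CTRL sum, with Krt19 at 22.3 CPM. Without that library, a choice made after seeing the data, 7 of 7 were higher, with 5.12% of all genes called. Stellate cell and fibroblast markers summed to 287 to 624 CPM in OPA1_LKO and 189 to 273 CPM in CTRL, with positive fold changes for 7 of 7 and none past the threshold. The part of these markers in the results below was not tested. In bulk RNA, fewer cells of a type and less RNA per cell cannot be told apart.

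Promoter sequences are shown for Cyp46a1 and Cyp8b1, which were lower in every OPA1_LKO library, and for Cyp2c70, whose groups overlapped. They come from RefSeq (GRCm38.p6, the build named mm10 in the processing notes), run 5′ to 3′ on the strand of the gene, and cover 250 bases before the start and 50 bases after it. Of the 10 genes, 7 had an entry; Cyp7a1, Cyp7b1 and Cyp39a1 did not. Capitals mark 3 motifs found on either strand: the HNF4 element CAAAGTCCA, the GC box GGGCGG and the TATA box TATAAA.
Cyp46a1 (chr12:108334066-108334365, plus strand): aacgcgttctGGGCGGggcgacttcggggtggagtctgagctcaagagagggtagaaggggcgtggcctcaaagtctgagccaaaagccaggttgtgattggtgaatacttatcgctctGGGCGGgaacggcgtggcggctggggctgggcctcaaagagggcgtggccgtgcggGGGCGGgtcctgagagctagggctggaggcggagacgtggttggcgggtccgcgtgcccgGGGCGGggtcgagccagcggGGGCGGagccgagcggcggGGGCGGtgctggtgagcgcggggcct
Cyp8b1 (chr9:121916256-121916555, minus strand): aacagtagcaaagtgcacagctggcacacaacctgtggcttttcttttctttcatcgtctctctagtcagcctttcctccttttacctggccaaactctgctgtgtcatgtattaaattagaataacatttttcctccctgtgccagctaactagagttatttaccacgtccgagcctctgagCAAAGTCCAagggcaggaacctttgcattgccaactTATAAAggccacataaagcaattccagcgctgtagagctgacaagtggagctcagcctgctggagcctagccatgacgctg
Cyp2c70 (chr19:40187237-40187536, minus strand): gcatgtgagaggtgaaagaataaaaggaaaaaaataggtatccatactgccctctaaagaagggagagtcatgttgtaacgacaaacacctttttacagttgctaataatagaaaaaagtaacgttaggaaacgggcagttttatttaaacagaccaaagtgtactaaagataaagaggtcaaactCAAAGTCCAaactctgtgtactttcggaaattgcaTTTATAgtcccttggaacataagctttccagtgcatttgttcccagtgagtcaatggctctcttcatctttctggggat
The Cyp46a1 sequence was 70.3% G and C, against 47.3% for Cyp8b1, 37.7% for Cyp2c70 and a median of 52.7% over 32851 promoters of the same length. It held 6 GC boxes, of which the nearest upstream began 15 bases before the start of the promoter entry, and neither of the other motifs. That start lies inside the gene span given below for Cyp46a1, so part of the sequence before it is within the span. Cyp8b1 and Cyp2c70 each held the HNF4 element, beginning 67 and 64 bases before the start, and a TATA box beginning 31 and 29 bases before it. The HNF4 element occurred in 0.475% of all promoters, the GC box in 35.7% and the TATA box in 13.6%. Of the other 4 promoters, those of Cyp27a1 and Hsd3b7 held 1 GC box each, that of Akr1c6 held a TATA box 164 bases before the start, and that of Akr1d1 held none of the 3 motifs. A match of letters is a description of the sequence and not a binding site.

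Among the enzymes of the classic route, Cyp7a1 (chromosome 4, 6265612 to 6275632) is rate-limiting. It was at 137, 89.4 and 147 CPM in OPA1_LKO livers, against 48.5, 73.3, 96.6, 109 and 81.1 CPM in CTRL livers. OPA1_LKO replicate 2 lay below CTRL replicates 3 and 4, so the groups overlapped in CPM. The log2 fold change was 0.61 ± 0.25, with an adjusted p of 0.180 (edgeR). In TPM, the level per transcript length that is scaled to one sum in each library, Cyp7a1 was at 51.95, 34.15 and 49.96 in OPA1_LKO livers, against 19.3, 25.3, 26.9, 28.6 and 25.6 in CTRL livers. The groups did not overlap in TPM, where 8.45% of genes were higher in this way. The 2 scales thus differ on whether the groups are apart. With limma on log2(TPM + 1) the difference was 0.81 ± 0.19 (SE), or 0.73 relative to the median of all genes on that scale, with an adjusted p of 0.0517, also short of the threshold. That scale moved the median of all genes by 0.12 (log2). Cyp7a1 did not pass in any of 16 alternative settings, whose log2 fold changes ran from 0.47 to 0.84.

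Cyp8b1 (chromosome 9, 121914356 to 121916305, a gene of 1 exon) encodes the 12-alpha-hydroxylase that directs the pathway to cholic acid. It was at 161, 96.5 and 130 CPM in OPA1_LKO livers, against 187, 178, 232, 243 and 261 CPM in CTRL livers. Every OPA1_LKO library lay below every CTRL library, in TPM as well, where 2.98% of genes did so. Its log2 fold change of -0.77 ± 0.20 had an adjusted p of 0.0535 by edgeR, just short of the threshold, and 0.00385 by DESeq2. Without CTRL replicate 1 the edgeR adjusted p was 0.0321, and without any other one library it ran up to 0.172.

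Within a library, the ratio of Cyp8b1 to Cyp7a1 does not depend on how libraries are scaled. In TPM it was 2.06, 1.904 and 1.49 in OPA1_LKO livers, against 6.77, 4.34, 4.16, 4.16 and 5.80 in CTRL livers. The groups did not overlap, with means of 1.82 ± 0.295 and 5.05 ± 1.18 (SD, n = 3 and 5). In TPM, Cyp7a1 was higher and Cyp8b1 lower in every OPA1_LKO library than in every CTRL library. Their ratio therefore had to be apart, and it adds no evidence beyond the 2 genes. The ratio of Cyp7b1 to Cyp7a1 was 0.570, 0.626 and 0.260 in OPA1_LKO livers, against 1.30, 2.16, 0.680, 1.38 and 1.23 in CTRL livers. Here OPA1_LKO replicate 2 and CTRL replicate 3 nearly met. The pairs were chosen with earlier results of these data known. The ratios are given as a description, with no test.

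**Figure D2:**
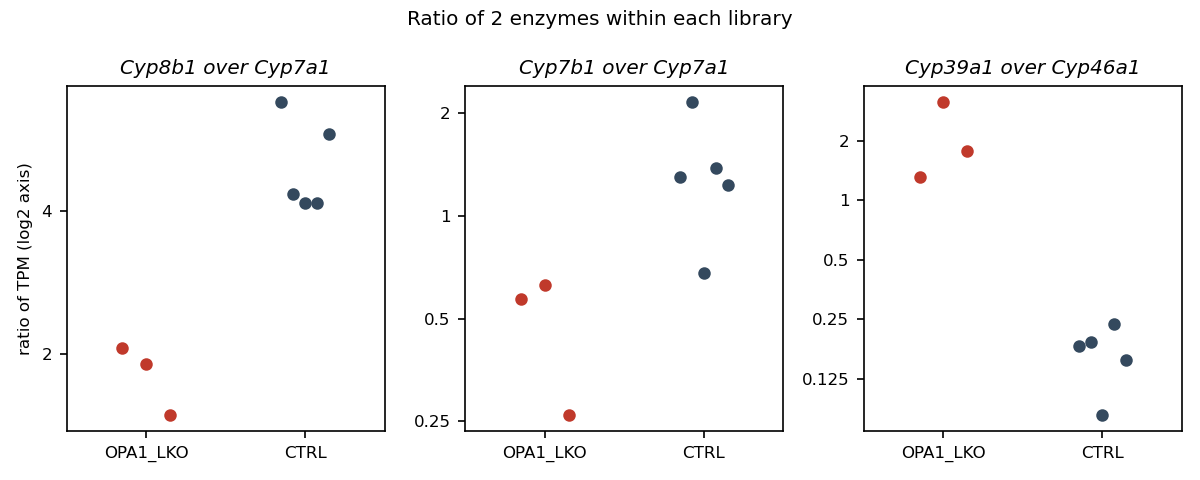
Ratio of TPM of a pair of enzymes within each library (vertical axis, log2 scale), with 1 point for each of the 3 OPA1_LKO livers and the 5 CTRL livers. Cyp8b1 over Cyp7a1 lay between 1.49 and 2.06 in OPA1_LKO and between 4.16 and 6.77 in CTRL, and Cyp39a1 over Cyp46a1 between 1.32 and 3.14 in OPA1_LKO and between 0.0821 and 0.237 in CTRL.

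Of the alternative routes, Cyp27a1 (chromosome 1, 74713148 to 74737897), the mitochondrial sterol 27-hydroxylase, was close in both groups. It was at 160, 239 and 270 CPM in OPA1_LKO livers, against 177, 225, 217, 256 and 221 CPM in CTRL livers. The OPA1_LKO values lay on both sides of the CTRL values. Its log2 fold change was 0.02 ± 0.19 (adjusted p = 0.956, edgeR), and its sign turned negative without CTRL replicate 1 and without OPA1_LKO replicates 2 or 3. Of its partners in electron transfer, Fdx1, the ferredoxin that serves mitochondrial P450 enzymes, was at 84.5 ± 5.25 CPM in OPA1_LKO and 111 ± 8.91 CPM in CTRL (SD, n = 3 and 5). Its groups were apart, as for 8.41% of all genes in this direction, but the adjusted p was 0.0914 by edgeR. Fdxr, another partner, went the other way, at 44.0 ± 21.2 CPM in OPA1_LKO and 32.1 ± 8.54 CPM in CTRL. Its groups overlapped (adjusted p = 0.388, edgeR).

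Cyp7b1 (chromosome 3, 18071944 to 18243890), the oxysterol 7-alpha-hydroxylase, which is higher in male than in female mouse liver, varied widely. It was at 50.2, 35.6 and 25.5 CPM in OPA1_LKO livers, against 40.3, 99.6, 42.6, 90.8 and 62.3 CPM in CTRL livers. CTRL replicates 1 and 3 lay within the OPA1_LKO range. The log2 fold change was -0.85 ± 0.34 with an adjusted p of 0.166 (edgeR), and no alternative setting took it past the threshold.

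Cyp39a1 (chromosome 17, 43667372 to 43751431) was at 9.51, 14.2 and 10.7 CPM in OPA1_LKO livers, against 3.40, 3.32, 4.42, 7.20 and 5.61 CPM in CTRL livers. The lowest OPA1_LKO library stood above the highest CTRL library, and the estimated counts behind these values ran from 59 in the lowest library upward. The rise passed in 12 of 16 alternative settings. It did not pass without CTRL replicate 2 (adjusted p = 0.0531, edgeR) or without OPA1_LKO replicates 1, 2 or 3 (0.0708, 0.0792 and 0.0750). Its log2 fold change stayed between 1.07 and 1.62. Of all genes tested, 5.96% were called with the RLE factors of edgeR, 5.82% with upper-quartile factors, 2.7% with no filter on low counts, 10% with DESeq2, 2.98% with limma on log2(TPM + 1), 2.85% on log2(TPM + 0.1), 1.81% on log2(TPM + 1) with no filter and 2.61% with the replicate number as a block. Without CTRL replicates 1, 2, 3, 4 and 5 in turn, 12.2%, 3.19%, 5.12%, 3.56% and 3.03% were called, and without OPA1_LKO replicates 1, 2 and 3 in turn, 1.38%, 4.69% and 1.6%.

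Cyp46a1 (chromosome 12, 108334268 to 108362234) was at 5.96, 3.73 and 5.39 CPM in OPA1_LKO livers, against 14.6, 13.3, 44.1, 23.5 and 27.5 CPM in CTRL livers. The groups did not overlap, and the CTRL libraries spread over 3.31-fold, with replicate 3 highest. Without CTRL replicate 3 the log2 fold change was -1.95, with an adjusted p of 0.00884 (edgeR). The fall passed in 14 of 16 alternative settings and did not pass without OPA1_LKO replicate 1 (0.0579) or replicate 3 (0.0606). Neuron markers summed to 4.38 to 7.06 CPM in OPA1_LKO and 5.90 to 48.4 CPM in CTRL, and 0 of the 2 tested passed (edgeR). The highest of these sums was that of CTRL replicate 1, with Snap25 at 19.4 and Syt1 at 17.95 CPM; without that library the log2 fold change of Cyp46a1 was -2.43 (adjusted p = 0.00420, edgeR).

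The ratio of Cyp39a1 to Cyp46a1 in TPM was 1.32, 3.14 and 1.78 in OPA1_LKO livers, against 0.184, 0.193, 0.0821, 0.237 and 0.156 in CTRL livers. Cyp39a1 transcripts thus outnumbered those of Cyp46a1 in each OPA1_LKO library and in no CTRL library. With Cyp39a1 higher and Cyp46a1 lower in every OPA1_LKO library, the ratio had to be apart. Both are the least abundant of the 10 genes per length, in either group.

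Among the ring-modifying enzymes shared by the routes, Hsd3b7 (chromosome 7, 127800609 to 127803802), the 3-beta-hydroxysteroid dehydrogenase of bile acid synthesis, was at 225, 232 and 227 CPM in OPA1_LKO livers, against 300, 453, 268, 444 and 491 CPM in CTRL livers. The OPA1_LKO libraries were nearly equal and all below CTRL in CPM, but in TPM CTRL replicate 3, at 140.1, fell just under the lowest OPA1_LKO library, at 140.3. The log2 fold change was -0.78 ± 0.22, with an adjusted p of 0.0661 by edgeR and 0.00727 by DESeq2. It passed the edgeR test without CTRL replicate 1 (0.0295) and without CTRL replicate 3 (0.0349).

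Akr1d1 (chromosome 6, 37529978 to 37574921), the 5-beta-reductase that bends the sterol ring, was at 45.7, 69.2 and 70.7 CPM in OPA1_LKO livers, against 73.2, 180, 81.0, 239 and 88.9 CPM in CTRL livers. The groups did not overlap in CPM but did in TPM, and CTRL replicates 2 and 4 were more than double the other CTRL libraries. With a log2 fold change of -1.10 ± 0.41, it did not pass (adjusted p = 0.139, edgeR).

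Akr1c6 (chromosome 13, 4434311 to 4457530), a hydroxysteroid dehydrogenase of the aldo-keto reductase family, was the most abundant member. It was at 673, 989 and 489 CPM in OPA1_LKO livers, against 784, 1558, 753, 1667 and 1061 CPM in CTRL livers. The groups overlapped, and CTRL replicates 2 and 4 were again the highest. At a log2 fold change of -0.70 ± 0.33 it did not pass either (adjusted p = 0.234, edgeR). How reads were divided between Akr1c6 and other Akr1c genes was not tested.

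Cyp2c70 (chromosome 19, 40153361 to 40187286) was at 77.3, 112 and 75.8 CPM in OPA1_LKO livers, against 51.7, 171, 75.4, 103 and 57.5 CPM in CTRL livers. The OPA1_LKO values lay inside the CTRL range, whose top was CTRL replicate 2. The log2 fold change was -0.05 ± 0.36 (adjusted p = 0.945, edgeR), and it was positive with upper-quartile scaling and on the TPM scale.

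**Figure D3:**
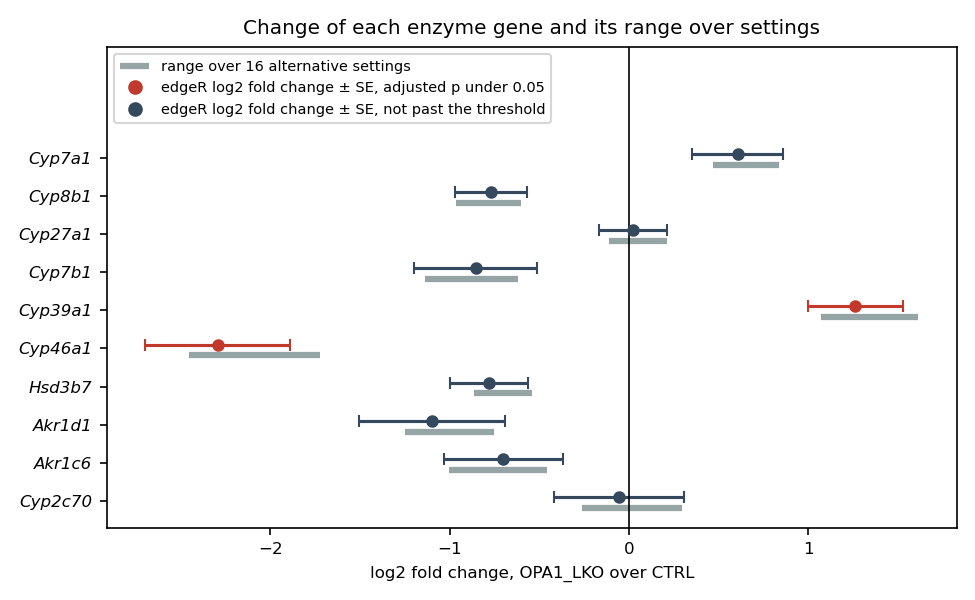
Log2 fold change of each enzyme gene, OPA1_LKO over CTRL (horizontal axis), as a point with its SE from edgeR, and below it a grey bar for the lowest to highest value over 16 alternative settings. Cyp39a1 lies above 0 and Cyp46a1 below 0 under every setting shown. Of the other members, only the bars of Cyp27a1 and Cyp2c70 cross 0, so a stable sign is not particular to the 2 genes called.

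Ordered by TPM, Akr1c6 led in both groups, at 740 ± 295 in OPA1_LKO and 1034 ± 343 in CTRL (SD, n = 3 and 5), and its range was apart from that of Hsd3b7, at 156 ± 14.4 and 240 ± 66.1. Akr1c6 made up 46.7% to 64.2% of the summed TPM of the 10 genes in OPA1_LKO livers and 54.7% to 64.4% in CTRL livers. In OPA1_LKO, Cyp27a1, Cyp8b1 and Cyp2c70 followed at 141 ± 30.3, 82.1 ± 22.0 and 70.2 ± 19.8, each overlapping its neighbour in the order. In CTRL the same places were held by Cyp8b1, Cyp27a1 and Cyp2c70 at 124 ± 16.04, 124 ± 12.2 and 63.7 ± 36.8, again overlapping. Cyp7a1 was sixth in OPA1_LKO, at 45.4 ± 9.75, with a range apart from both neighbours, and eighth in CTRL, at 25.1 ± 3.50, where it overlapped Cyp7b1. Cyp39a1 stood above Cyp46a1 in OPA1_LKO, at 4.57 ± 1.08 against 2.36 ± 0.613, and below it in CTRL, at 1.64 ± 0.397 against 10.5 ± 3.94, in both groups with ranges apart.

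**Figure D4:**
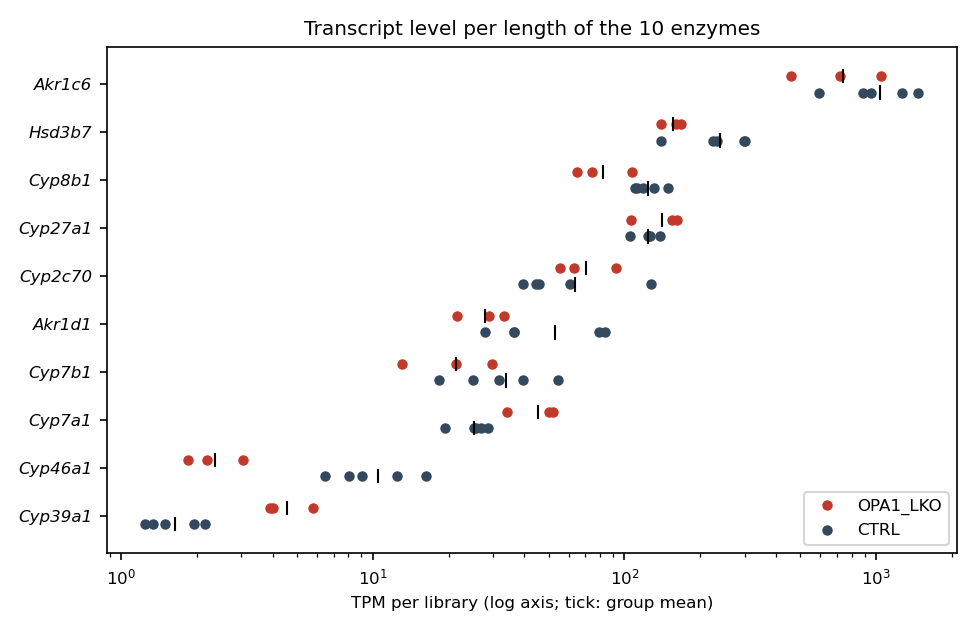
Level per length of the 10 enzyme genes in TPM (horizontal axis, log scale), with 1 point for each library, OPA1_LKO above CTRL, and a tick at each group mean, ordered by the CTRL mean. Akr1c6 lies highest in both groups, and Cyp39a1 and Cyp46a1 exchange places at the low end.

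The deposited transcript tables list 31 annotated transcripts of the 10 genes, of which 27, in 9 genes, had a mean of at least 0.1 TPM and a partner in the same gene. Their shares of the gene's TPM were set against each other with a two-sided exact permutation test, for which 56 divisions of the libraries exist and 0.0357 is the smallest possible p. After Benjamini-Hochberg adjustment, a call needed most of the 27 shares to reach that smallest p at once. The test could therefore hardly call any share, and the absence of calls does not show that shares are alike. None of the 27 passed (0% called), and 6 reached that smallest p, with an adjusted p of 0.161. The groups did not overlap for these 6, against 2.76% of the 24879 transcripts chosen in the same way over all genes. The 6 shares belong to Akr1d1, Cyp46a1 and Cyp7b1, a pair in each gene, so that the members of a pair are not independent. For Akr1d1, NM_145364.2 made up 16.8%, 28.3% and 18.8% of the gene in OPA1_LKO livers, against 3.09% in CTRL replicate 2 and a listed value of 0 in the other CTRL libraries. The main transcript XM_006505825.1 held 73.7% ± 5.62 in OPA1_LKO and 95.1% ± 2.71 in CTRL (SD, n = 3 and 5). For Cyp46a1, NM_010010.1 held 46.4%, 38.2% and 26.5% in OPA1_LKO livers, against 60.0%, 59.0%, 50.8%, 60.2% and 62.5% in CTRL livers. For Cyp7b1 the minor transcript XM_006535384.2 held 2.37% ± 0.518 in OPA1_LKO and 3.86% ± 0.705 in CTRL. RSEM assigns reads that fit several transcripts by estimation, and for Cyp39a1 the assignment moved between libraries of one group: NM_018887.4 took 100% of the gene in OPA1_LKO replicate 2 and 18.5% and 17.99% in the other OPA1_LKO libraries.

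**Figure D5:**
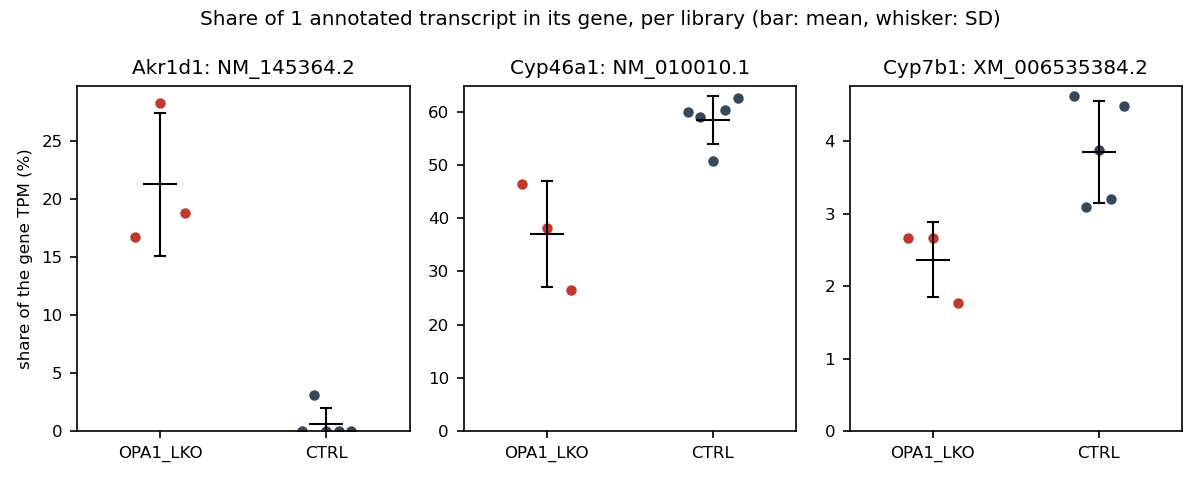
Share of an annotated transcript in the TPM of its gene (vertical axis, percent, from 0), with 1 point for each of 3 OPA1_LKO and 5 CTRL livers, the bar at the mean and the whisker at the SD. The panels show 1 transcript of each gene whose groups did not overlap, with 16.8% to 28.3% in OPA1_LKO for Akr1d1 NM_145364.2 and at most 3.09% in CTRL.

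Of 48 tested genes in 5 other lists of the pathway, drawn up by function, 2 changed (4.17%), near the 6.03% of all genes. Of 9 tested genes for side chain hydroxylation and peroxisomal shortening, 0 rose and 0 fell (edgeR), with a median log2 fold change of -0.12. The smallest p was that of Hsd17b4, the peroxisomal bifunctional enzyme, at 313 ± 22.4 CPM in OPA1_LKO and 438 ± 55.2 CPM in CTRL (adjusted p = 0.0947). Of 10 genes for sterol delivery and electron supply, 1 fell and 0 rose: Cyb5r3, cytochrome b5 reductase, at 278 ± 10.2 CPM in OPA1_LKO and 465 ± 81.6 CPM in CTRL (adjusted p = 0.0337, edgeR), a call that held in 4 of 16 alternative settings and was lost with upper-quartile factors (0.0522) and without CTRL replicate 3 (0.0514), among others. None of 4 genes for amino acid conjugation passed (edgeR), where the median log2 fold change was -0.56 and 4 of 4 were negative; Acnat2, an acyltransferase gene, passed as lower without CTRL replicate 3. Of 13 tested regulators, none passed (edgeR), with a median of -0.23. Among them the nuclear receptor gene Ppara was at 122 ± 13.9 CPM in OPA1_LKO and 194 ± 42.2 CPM in CTRL (adjusted p = 0.0825), and passed as lower without CTRL replicate 1. Hnf4a, which encodes the receptor named with the HNF4 element, was at 340 ± 4.83 CPM in OPA1_LKO and 332 ± 36.2 CPM in CTRL, and Nr0b2, the repressor induced by bile acids, at 26.6 ± 15.8 CPM and 38.7 ± 13.4 CPM. Fgf15 was at 0 in every library. Of 12 tested bile acid transporters, 1 fell and 0 rose: Abcc3, a pump of the sinusoidal membrane, at 105 ± 16.6 CPM in OPA1_LKO and 195 ± 45.7 CPM in CTRL (adjusted p = 0.0368, edgeR). The call of Abcc3 held in 4 of 16 alternative settings. Without CTRL replicate 1 the count of the list was 3 lower and 1 higher, with 12.2% of all genes called. Without CTRL replicate 3 the count was 0, with 5.12% of all genes called.

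Cyp7b1 and Cyp39a1 are known to differ between the sexes in mouse liver, so sex-biased genes were set beside them. Of 11 tested female-biased genes 3 rose and 0 fell (edgeR), against 3.34% of all genes higher and 2.69% lower. Cyp3a41a and Sult2a1 were among the 3. The log2 fold change was positive for 8 of the 11 and negative for 3, with a median of 1.12. Cyp3a41a was at 20.96 ± 11.1 CPM in OPA1_LKO and 0.0868 ± 0.110 CPM in CTRL. Of 13 male-biased genes 1 rose, Serpina1e, and 0 fell (edgeR). Their fold changes were positive for 5 and negative for 8, with a median of -0.45. Y-linked Eif2s3y was at 29.9 ± 3.204 CPM in OPA1_LKO and 38.1 ± 5.45 CPM in CTRL (adjusted p = 0.185, edgeR), so it was transcribed in all 8 livers. Without CTRL replicate 1, 5 female-biased genes rose and 1 fell, and 2 male-biased genes rose and 2 fell (Hsd3b5 and Mup7). In that setting 12.2% of all genes were called. Without CTRL replicate 3, 1 male-biased gene rose and 1 fell (Mup7), with 5.12% of all genes called. The part of these genes in the results for Cyp39a1 and Cyp7b1 was not tested.

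By the root mean square distance between log2 CPM standardised over the 8 libraries, the nearest of 11739 other genes to Cyp39a1 were Itga1 (0.123), St3gal5 (0.227) and Ktn1 (0.278). Among those nearest to Cyp46a1 were Tmem184a (0.154) and Dbi (0.280), and those nearest to Cyp7a1 were Arl4a (0.249), Mphosph8 (0.295) and Rhbdd1 (0.336). Tmem184a was at 9.33, 7.24 and 8.11 CPM in OPA1_LKO livers, against 13.4, 16.01, 24.9, 18.6 and 20.5 CPM in CTRL livers, with the same order of CTRL replicates 3, 5 and 4 at the top as Cyp46a1. The distance describes these libraries only.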

How the data were processed

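RNA was sequenced from whole liver in 8 libraries (3 OPA1_LKO, 5 CTRL). Per the labels' protocols, libraries were made with a stranded mRNA kit. STAR, RSEM, MultiQC and StringTie are named in the submitters' processing notes, with build mm10 and no versions; the annotation release and strand setting are not stated there. The authors deposited RSEM expected counts per gene and transcript, not normalised, and TPM per gene and transcript, scaled by length and to one sum per library.

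Gene counts were rounded, filtered with filterByExpr (minimum count 10, total 15), scaled by TMM and tested with the quasi-likelihood test of edgeR 4.0.16 (R 4.3.3), OPA1_LKO against CTRL with no other term, adjusted by Benjamini-Hochberg over 14036 genes; an adjusted p under 0.05 was called changed. SE was the log2 fold change over the square root of F. Alternatives used DESeq2 1.42.0, limma 3.58.1 on log2 TPM with a pseudocount of 1 or 0.1, other scalings and filters, the replicate number as a block, and leaving out each library. Simulated counts of this comparison held 13796 genes, 200 of them changed. The test recovered 8% of those changed 1.5-fold, 38% of those changed 2-fold and 86% of those changed 4-fold. The simulation held fewer changed genes than the 846 called in the data, so recovery in the data may differ from these values. The named genes are the 10 members, Opa1, the members of each other list past the threshold (at most 4, or the 1 with the smallest p), and the 3 nearest genes to Cyp7a1 and to each member that changed. Apoe, Xist, Krt19, Fdx1, Fdxr, Por, Hnf4a, Nr0b2, Fgf15, Hsd3b5 and Mup7 fall outside this rule, as do Snap25 and the hepatocyte markers other than Tat. Their values were known when they were picked. Of the genes this rule names, 2 are not reported here. The members, lists and tests were chosen with earlier results of these data known. Coordinates and promoters are from RefSeq on GRCm38.p6, exon counts from GENCODE.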

Additional observations from a re-analysis of the deposited data

Results flagged for a closer look

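A CTRL library stood far from the other 4 in 7 of 72 sets of values examined at the 95% level of Dixon's test, which chance alone reaches in about 5% of groups. In CTRL replicate 2, Cyp2c70 was at 127.85 TPM, Serpina1e at 795 CPM and Sult2a1 at 0.0562 CPM, with Sult2a1 at 0 in the other CTRL libraries. In the same library the transcript XM_006537603.1 took 4.63% of Cyp7a1 and NM_145364.2 took 3.09% of Akr1d1, both listed at 0 in the other CTRL libraries. Where the other 4 values are all 0, any value above 0 is flagged. The flags of Sult2a1 and of these transcripts therefore follow from the floor, and the 5% does not apply to them. In CTRL replicate 1, the macrophage marker Cd5l was at 346 CPM and the synaptic gene Syt1 at 17.95 CPM. Without CTRL replicate 2 the log2 fold change of Cyp2c70 was 0.30.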

How the results depend on the processing

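Of 160 alternative values for the 10 enzyme genes, 138 kept the direction and the side of the threshold, 6 lost a call, 5 gained one and 11 changed sign. The count of changed enzyme genes was 2 and became 4 with DESeq2 (Cyp8b1 and Hsd3b7 in addition), and lay between 0 and 4 without any one library; it was 0 without OPA1_LKO replicate 1 or replicate 3. Over all genes the 846 calls (469 higher, 377 lower) became 1574 with DESeq2, 333 on log2(TPM + 1), 318 on log2(TPM + 0.1) and 418 on log2(TPM + 1) with no filter, and lay between 198 (without OPA1_LKO replicate 1) and 1701 (without CTRL replicate 1). The split was 547 higher and 270 lower with upper-quartile scaling and 259 higher and 74 lower on log2(TPM + 1). Cyp2c70 changed sign with upper-quartile scaling (0.042), on log2(TPM + 1) with and without the filter (0.25 in both) and on log2(TPM + 0.1) (0.25), and lay between -0.26 and 0.30 without any one library; Cyp27a1 lay between -0.11 and 0.21. The cause was not tested. With the replicate number as a block, 367 genes and the same 2 enzyme genes were called. Same-numbered libraries deviated together with correlations of 0.072, 0.0537 and 0.175 across genes. OPA1_LKO replicates 1 and 3 correlated best with their own number, and replicate 2 with CTRL replicate 5 (0.174). These values do not settle whether the numbers mark pairs, and the numbers were not taken as pairs. The count of transcript shares called stayed 0 in every setting, but the smallest p that fewer libraries allow is larger, so this says nothing of stability. Leaving out CTRL replicates 1 or 3 in the counts of other lists was chosen after seeing the data.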

Other observations

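Clock genes, which drive daily rhythms of Cyp7a1 and other liver genes, were measured because the labels give no collection times. Of 13, none passed the edgeR test, 10 had negative fold changes, and the median log2 fold change was -0.23. Hlf, a transcription factor of the clock output, was at 29.0 ± 6.49 CPM in OPA1_LKO and 48.4 ± 12.96 CPM in CTRL (SD, n = 3 and 5; adjusted p = 0.107), and passed as lower without CTRL replicate 1. Por, the electron donor of the microsomal P450 enzymes, was at 445, 599 and 500 CPM in OPA1_LKO livers, against 169, 312, 315, 430 and 317 CPM in CTRL livers, with the groups apart and an adjusted p of 0.115 (edgeR). Tat, the tyrosine aminotransferase of hepatocytes, rose to 1405 ± 291 CPM in OPA1_LKO, against 462 ± 133 CPM in CTRL (adjusted p = 0.00950, edgeR), the 1 of 6 hepatocyte markers that changed. Of 7 macrophage, 7 stellate, 6 endothelial and 6 lymphocyte markers, none passed the edgeR test.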
